A study of Arabidopsis thaliana with 4 samples.

Results

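The genes of glucosinolate synthesis, transport and breakdown were followed in Arabidopsis thaliana plants labelled as lacking both TRIC1 (AT3G49560) and TRIC2 (AT5G24650), against wild type. TRIC1 and TRIC2 are membrane proteins of the mitochondrion known for their part in tRNA import. The set holds 40 genes of the 34133 loci in each deposited table. It was chosen by locus identifier and by known role, and covers the MYB regulators, side-chain elongation, the core pathway, side-chain modification, the GTR transporters, the myrosinases and the epithiospecifier protein ESP. All 40 identifiers were found in both tables. Cuffdiff had tested 38 of them in each tissue, and the other 2, MYB122 and AOP3, had no test in either.

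The 4 groups were rosette leaves of AtTric1&2 dko plants (called dko) and of WT(Col0) plants at 4 weeks, and seedlings of dko and of WT(Col0) plants at 2 weeks. All plants grew at 22 °C with a 16 h photoperiod, and the rosette plants went to soil on day 5. Each group is stated to hold 3 replicates, but the tables give 1 FPKM (fragments per length of transcript and per sequenced fragment in total, a level scaled for gene length and depth) per gene and group, so no standard deviation can be given and the depth is unknown. The error of each comparison is that built into the q-value of Cuffdiff, for which 0.05 was the threshold. The labels give neither the insertion lines and alleles nor whether plants were pooled. TRIC1 stood at 10.7 FPKM in dko rosettes and 34.7 FPKM in WT rosettes, and at 16.2 FPKM in dko seedlings and 33.9 FPKM in WT seedlings, in the authors' deposited tables. TRIC2 stood at 0.0690 FPKM in dko rosettes and 17.5 FPKM in WT rosettes, and at 0.366 FPKM in dko seedlings and 17.7 FPKM in WT seedlings, in the authors' deposited tables. Transcript of TRIC1 was thus lower but present in the dko. The lower value of TRIC2 in dko rosettes has q = 0.146 by the authors' deposited table, and the other 3 differences passed the threshold.

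Glucosinolates are sulfur-rich glucosides that plants of the cabbage order store against herbivores and microbes. The aliphatic kind starts from methionine, whose side chain is lengthened in the chloroplast, and the indolic kind starts from tryptophan. Both then pass through a shared series of reactions (oxime formation by CYP79 enzymes, oxidation by CYP83 enzymes, conjugation with glutathione and its trimming, C-S cleavage, glucosylation and sulfation). Myrosinases, kept in separate cells of the leaf and in guard cells, split glucosinolates when tissue is damaged, and specifier proteins decide between isothiocyanates, nitriles and other products.

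In dko rosettes the myrosinase genes TGG1 and TGG2 fell by 6.44-fold and 6.82-fold, the elongation gene MAM3 by 6.05-fold and the transporter gene GTR1 by 1.79-fold, each below wild type in the authors' deposited table. MYB28, the main activator of the aliphatic branch, and 2 elongation genes, BAT5 and IPMI SSU2, rose by 1.54-fold to 1.84-fold. No member of the core pathway or of side-chain modification passed Cuffdiff's test in rosettes, of 13 and 6 tested. Of these 19, 0 had an unadjusted p under 0.05. Outside the members, GSTF10 of the core pathway and FMO GS-OX4 and IGMT5 of side-chain modification were lower past the threshold in rosettes. In seedlings MAM3 fell again and CYP79B3 fell, whereas TGG2 and ESP rose. Of 38 tested members, 3 were higher and 4 lower in the authors' deposited rosette table, which is 18.4% against 16.8% of all 18338 tested loci (7.81% higher and 8.94% lower). In seedlings there were 2 higher and 2 lower by the authors' deposited table, which is 10.5% against 16.5% of all 19747 tested loci (8.4% higher and 8.14% lower). The share of members past the threshold was thus near the background in rosettes. In seedlings it was smaller, but it rests on 4 genes and was not tested against the background. The median log2 ratio over tested members came to -0.03 in rosettes and -0.00066 in seedlings, beside 0.01 and 0.01 for all tested loci with both groups above 0. Of the 38 tested members, 30 in rosettes and 36 in seedlings had a log2 ratio within 0.5 of 0, as did 65.7% and 81.3% of those loci. Rescaling both groups to the same sum over nuclear loci other than rRNA would add 0.27 to every log2 ratio in rosettes and 0.19 in seedlings. It turns the direction of no member past the threshold, but that of 13 others in rosettes and 14 in seedlings. At a q threshold of 0.01 the calls of MYB28 and GTR1 in rosettes and of CYP79B3, TGG2 and ESP in seedlings were lost.

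**Figure D1:**
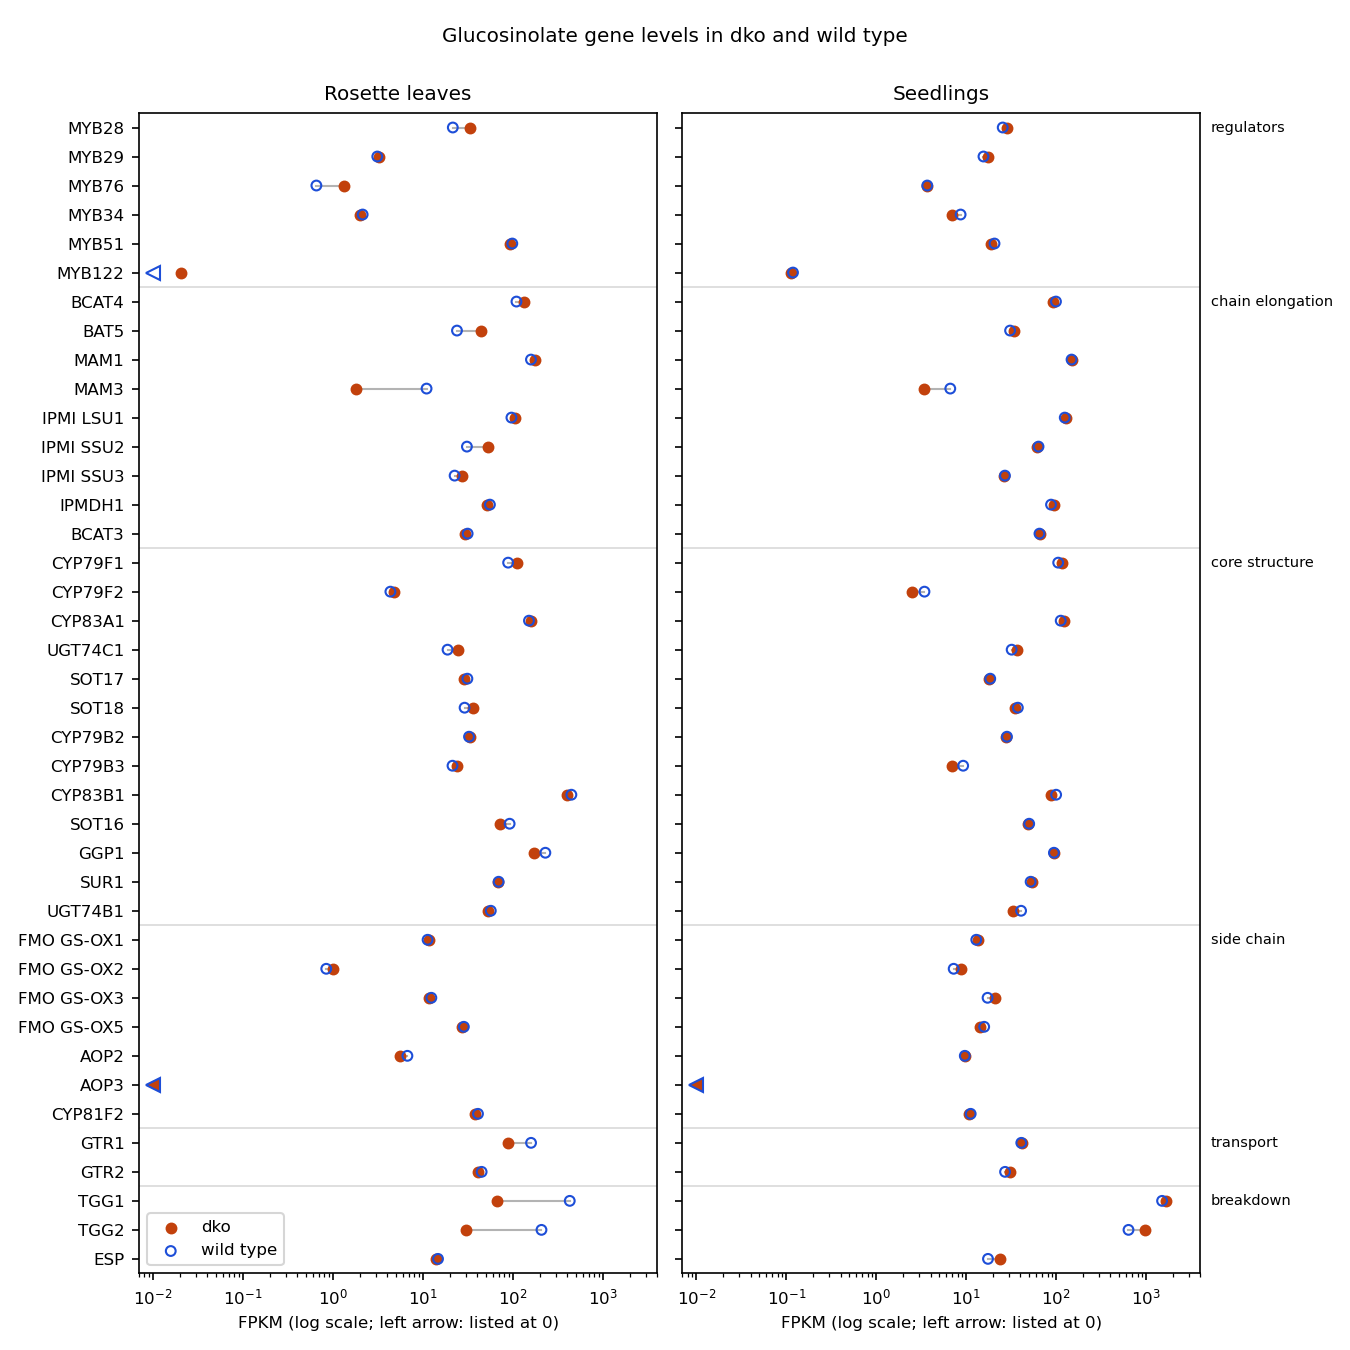
FPKM (log axis) of the 40 glucosinolate genes in dko (filled) and wild type (open), in rosette leaves (left) and seedlings (right), 1 pooled value per group, with rows ordered by step and left arrows for values listed at 0. In rosettes the widest gaps are those of MAM3, TGG1 and TGG2, with dko below wild type, while in seedlings TGG1 and TGG2 are the genes of highest level in both groups.

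MYB28 (AT5G61420), MYB29 (AT5G07690) and MYB76 (AT5G07700) activate the aliphatic genes, and MYB34 (AT5G60890), MYB51 (AT1G18570) and MYB122 (AT1G74080) the indolic ones. MYB28 stood at 33.0 FPKM in dko rosettes and 21.5 FPKM in WT rosettes, a log2 ratio of 0.62 with q = 0.0302 by the authors' deposited table. In seedlings it stood at 28.3 FPKM in the dko and 25.4 FPKM in wild type (log2 ratio 0.16, q = 0.499, authors' deposited table). MYB28 was thus higher in the dko beyond the error of the test in rosettes and not in seedlings. MYB76 showed the largest positive ratio of any member in rosettes, at 1.34 FPKM in the dko and 0.654 FPKM in wild type (log2 ratio 1.03), but did not pass (q = 0.161, authors' deposited table). MYB29 stood at 3.21 FPKM in dko rosettes and 3.11 FPKM in WT rosettes, and at 17.6 FPKM in dko seedlings and 15.5 FPKM in WT seedlings, with no call in either of the authors' deposited tables. No indolic regulator passed Cuffdiff's test, nor had any an unadjusted p under 0.05. MYB51 was the regulator of highest level in rosettes, at 93.1 FPKM in the dko and 98.4 FPKM in wild type, and stood at 18.7 FPKM in dko seedlings and 20.6 FPKM in WT seedlings in the authors' deposited tables. MYB34 was at 2.01 FPKM in dko rosettes and 2.14 FPKM in WT rosettes, and at 6.95 FPKM in dko seedlings and 8.64 FPKM in WT seedlings (log2 ratio -0.31, q = 0.206, authors' deposited tables). MYB122 is listed at 0.0202 FPKM in dko rosettes and 0 in WT rosettes, and at 0.113 FPKM in dko seedlings and 0.119 FPKM in WT seedlings, without a test in the authors' deposited tables.

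Side-chain elongation is a cycle in which BCAT4 (AT3G19710) removes the amino group, BAT5 (AT4G12030) carries the keto acid into the chloroplast, MAM synthases condense it with acetyl-CoA, an isomerase of a large and a small subunit (IPMI) and the dehydrogenase IPMDH1 (AT5G14200) complete the extension, and BCAT3 (AT3G49680) restores the amino group. Of the 9 genes, 2 rose and 1 fell in rosettes, and 1 fell in seedlings, in the authors' deposited tables. BAT5 stood at 43.9 FPKM in dko rosettes and 23.9 FPKM in WT rosettes (log2 ratio 0.88, q = 0.00164, authors' deposited table), and at 34.2 FPKM in dko seedlings and 30.7 FPKM in WT seedlings (log2 ratio 0.16, q = 0.499, authors' deposited table). IPMI SSU2 (AT2G43100), a small subunit, stood at 52.9 FPKM in dko rosettes and 30.8 FPKM in WT rosettes (log2 ratio 0.78, q = 0.00504, authors' deposited table). In seedlings it was at 61.1 FPKM in the dko and 63.5 FPKM in wild type (log2 ratio -0.06, q = 0.841, authors' deposited table). Both genes thus passed in rosettes and not in seedlings, and the difference between tissues was not tested.

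MAM3 (AT5G23020), the synthase that also makes the longer side chains, was the member of this step with the largest change. It stood at 1.81 FPKM in dko rosettes and 10.97 FPKM in WT rosettes, a log2 ratio of -2.60 with q = 0.000899 (6.05-fold lower) by the authors' deposited table. In seedlings it stood at 3.43 FPKM in the dko and 6.63 FPKM in wild type, a log2 ratio of -0.95 with q = 0.000768 (1.94-fold lower) by the authors' deposited table. Of the 38 tested members MAM3 alone was lower past the threshold in both tissues. MAM1 (AT5G23010), which makes the short side chains and lies 11.2 kb from MAM3 with no locus between them, did not pass. It stood at 178 FPKM in dko rosettes and 159 FPKM in WT rosettes, and at 151 FPKM in dko seedlings and 148 FPKM in WT seedlings, in the authors' deposited tables. The level of MAM1 was 98.2 times that of MAM3 in dko rosettes and 14.5 times in WT rosettes, and 44.2 times in dko seedlings and 22.3 times in WT seedlings. The coding sequences of the pair are 78.9% identical and share no exact run longer than 30 bases. MAM3 lies on the plus strand of chromosome 5 at 7718121 to 7721839 (TAIR10, as in the tables), and its first annotated transcript has 10 exons.

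The remaining elongation genes did not pass in either tissue. BCAT4 stood at 134 FPKM in dko rosettes and 109 FPKM in WT rosettes, and IPMI LSU1 (AT4G13430), the large subunit, at 104 FPKM in dko rosettes and 96.2 FPKM in WT rosettes, in the authors' deposited table. IPMI SSU3 (AT3G58990) was at 27.5 FPKM in dko rosettes and 22.5 FPKM in WT rosettes in the authors' deposited table. IPMDH1 was at 50.97 FPKM in dko rosettes and 55.5 FPKM in WT rosettes, and BCAT3 at 29.6 FPKM in dko rosettes and 31.4 FPKM in WT rosettes, in the authors' deposited table. In seedlings the log2 ratios of these 5 genes lay between -0.12 (BCAT4) and 0.12 (IPMDH1) in the authors' deposited table.

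The upstream sequences of BAT5 and IPMI SSU2, the elongation genes that rose in rosettes, are shown because both hold an AC element (ACCNACC), the kind of site known to be bound by R2R3 MYB proteins. They are the 250 bases before the gene start in RefSeq's TAIR10.1 annotation, at chr4:7210557-7210806 and chr2:17920397-17920646, both on the plus strand, and capitals mark the AC element and, in BAT5, GAGAC, the core of a sulfur-responsive element.
BAT5: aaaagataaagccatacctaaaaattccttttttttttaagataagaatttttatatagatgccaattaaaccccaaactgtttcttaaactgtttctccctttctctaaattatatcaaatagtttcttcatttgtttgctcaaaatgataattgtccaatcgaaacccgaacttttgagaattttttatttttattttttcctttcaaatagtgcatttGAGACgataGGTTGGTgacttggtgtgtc
IPMI SSU2: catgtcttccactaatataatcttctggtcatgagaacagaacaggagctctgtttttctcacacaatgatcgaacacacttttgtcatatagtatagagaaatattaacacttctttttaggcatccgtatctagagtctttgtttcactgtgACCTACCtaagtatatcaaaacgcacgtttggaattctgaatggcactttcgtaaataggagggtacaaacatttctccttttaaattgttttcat
Searched on both strands, ACCNACC was found in the 250 bases before 10 of the 40 members (25%) and before 6.10% of 27437 protein-coding genes of the nucleus. The 10 were BAT5, IPMI LSU1, IPMI SSU2, IPMI SSU3, CYP79F2 (AT1G16400), CYP83A1 (AT4G13770), SOT17 (AT1G18590), SOT16 (AT1G74100), UGT74B1 (AT1G24100) and ESP (AT1G54040). Of the 9 members past the threshold in either tissue 3 hold it, BAT5, IPMI SSU2 and ESP. The G-box CACGTG, known as a site of MYC2-type factors, was found before 3 members (7.5%) and 6.49% of all genes, and GAGAC before 9 members (22.5%) and 25.8% of all genes. These counts describe letters in the window and do not show binding.

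The core pathway makes the glucosinolate proper. Its 13 members showed no call in rosettes and 1 in seedlings in the authors' deposited tables. Of the 6 aliphatic core genes, CYP79F1 (AT1G16410), which makes the aliphatic oximes, stood at 112 FPKM in dko rosettes and 88.5 FPKM in WT rosettes (log2 ratio 0.34, q = 0.417, authors' deposited table). CYP83A1, the next enzyme, stood at 158 FPKM in dko rosettes and 151 FPKM in WT rosettes in the authors' deposited table. The glucosyltransferase gene UGT74C1 (AT2G31790) had a log2 ratio of 0.40 in rosettes, at 24.8 FPKM in the dko and 18.8 FPKM in wild type (q = 0.736, authors' deposited table). The sulfotransferase gene SOT18 (AT1G74090) stood at 36.4 FPKM in dko rosettes and 29.0 FPKM in WT rosettes, and SOT17 at 28.6 FPKM in the dko and 31.2 FPKM in wild type, without passing in the authors' deposited table. In seedlings none of the 6 passed (1 at an unadjusted p under 0.05, CYP79F2), with Cuffdiff's log2 ratios between -0.45 for CYP79F2 (q = 0.1001) and 0.18 for UGT74C1 in the authors' deposited table.

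CYP79F2, an enzyme for the longer-chain oximes, was far below its neighbour CYP79F1, at 4.75 FPKM in dko rosettes and 4.35 FPKM in WT rosettes, and at 2.502 FPKM in dko seedlings and 3.43 FPKM in WT seedlings, in the authors' deposited tables. The CYP79F1 level was 23.5 times that of CYP79F2 in dko rosettes and 20.4 times in WT rosettes. The pair is 90.7% identical over its coding sequences (RefSeq, TAIR10.1) and shares an exact run of 100 bases, shown here because reads that fall within it match both genes equally well.
CYP79F1 and CYP79F2: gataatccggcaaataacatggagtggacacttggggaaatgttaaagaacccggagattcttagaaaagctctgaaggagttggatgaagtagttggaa
The run covers coding bases 994 to 1093 of CYP79F1. The rule for assigning such reads is not known, so the level of CYP79F2 is uncertain.

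On the indolic side, CYP79B2 (AT4G39950) and CYP79B3 (AT2G22330) turn tryptophan into its oxime, CYP83B1 (AT4G31500) oxidises the oxime and SOT16 adds the sulfate group. CYP83B1 was the member of highest level in rosettes, at 397 FPKM in the dko and 446 FPKM in wild type (log2 ratio -0.17, q = 0.745, authors' deposited table), and stood at 87.6 FPKM in dko seedlings and 99.6 FPKM in WT seedlings (q = 0.386, authors' deposited table). CYP79B3 stood at 6.96 FPKM in dko seedlings and 9.23 FPKM in WT seedlings, a log2 ratio of -0.41 that passed narrowly (q = 0.0471, authors' deposited table). In rosettes it stood at 23.95 FPKM in the dko and 21.3 FPKM in wild type (log2 ratio 0.17, q = 0.674, authors' deposited table). CYP79B2 did not pass, at 32.9 FPKM in dko rosettes and 32.5 FPKM in WT rosettes, and at 27.5 FPKM in dko seedlings and 28.3 FPKM in WT seedlings, in the authors' deposited tables. SOT16 was at 72.1 FPKM in dko rosettes and 91.9 FPKM in WT rosettes (log2 ratio -0.35, q = 0.302, authors' deposited table). All 7 tested indolic genes, regulators and CYP81F2 (AT5G57220) included, had a ratio below 0 in seedlings, and of these CYP79B3 passed. Under rescaling to the nuclear sum 5 of the 7 (MYB51, CYP79B2, CYP83B1, SOT16 and CYP81F2) lie above 0. The indolic median log2 ratio was -0.09 in rosettes and -0.14 in seedlings, beside 0.13 and 0.03 for the 23 tested aliphatic genes. Rescaling to the nuclear sum turns both indolic medians positive. It raises the aliphatic medians by the same amounts, so the gap between the branches stays as it was.

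The 3 core members that serve both branches did not pass Cuffdiff's test, and at an unadjusted p under 0.05 there was 1, UGT74B1 in seedlings. GGP1 (AT4G30530), which trims the glutathione conjugate, stood at 170 FPKM in dko rosettes and 229 FPKM in WT rosettes (log2 ratio -0.44, q = 0.209, authors' deposited table). SUR1 (AT2G20610), the C-S lyase, stood at 69.1 FPKM in dko rosettes and 69.4 FPKM in WT rosettes, and UGT74B1, a glucosyltransferase, at 53.4 FPKM in the dko and 56.8 FPKM in wild type, in the authors' deposited table. In seedlings GGP1 was at 93.6 FPKM in the dko and 94.2 FPKM in wild type in the authors' deposited table. SUR1 was at 53.4 FPKM in dko seedlings and 51.9 FPKM in WT seedlings, and UGT74B1 at 33.3 FPKM in the dko and 40.6 FPKM in wild type (log2 ratio -0.29, q = 0.119), in the authors' deposited table.

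No member of the side-chain step passed Cuffdiff's test, and at an unadjusted p under 0.05 there was 1 in seedlings and 0 in rosettes. Of the side-chain genes outside the members, FMO GS-OX4 and IGMT5 were lower past the threshold in rosettes. GSL-OH and IGMT2 were so in seedlings. The FMO GS-OX genes oxidise the sulfur of the aliphatic side chain. Among the members, their log2 ratios in rosettes lay between -0.10 for FMO GS-OX3 (AT1G62560) and 0.25 for FMO GS-OX2 (AT1G62540). In seedlings they lay between -0.17 for FMO GS-OX5 (AT1G12140) and 0.28 for FMO GS-OX2 and FMO GS-OX3, in the authors' deposited tables. FMO GS-OX4, which is not a member, had a log2 ratio of -1.27 in rosettes (q = 0.00164, authors' deposited table). FMO GS-OX3 was the member with an unadjusted p under 0.05 in seedlings, at 20.9 FPKM in the dko and 17.2 FPKM in wild type (q = 0.143, authors' deposited table). FMO GS-OX1 (AT1G65860) stood at 11.7 FPKM in dko rosettes and 11.3 FPKM in WT rosettes, and FMO GS-OX5 at 27.5 FPKM in the dko and 28.5 FPKM in wild type, in the authors' deposited table. FMO GS-OX2 was low in rosettes, at 1.00003 FPKM in the dko and 0.842 FPKM in wild type, and stood at 8.78 FPKM in dko seedlings and 7.24 FPKM in WT seedlings in the authors' deposited tables. AOP2 (AT4G03060), which in other accessions makes alkenyl glucosinolates and is annotated by RefSeq as a transcribed pseudogene in Col-0, stood at 5.502 FPKM in dko rosettes and 6.72 FPKM in WT rosettes, and at 9.60 FPKM in dko seedlings and 9.62 FPKM in WT seedlings, in the authors' deposited tables. AOP3 (AT4G03050), its neighbour, is listed at 0 in all 4 groups. CYP81F2, which hydroxylates the indole ring in the defence-linked indolic branch, stood at 38.4 FPKM in dko rosettes and 40.9 FPKM in WT rosettes, and at 10.8 FPKM in dko seedlings and 11.2 FPKM in WT seedlings, in the authors' deposited tables.

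**Figure D2:**
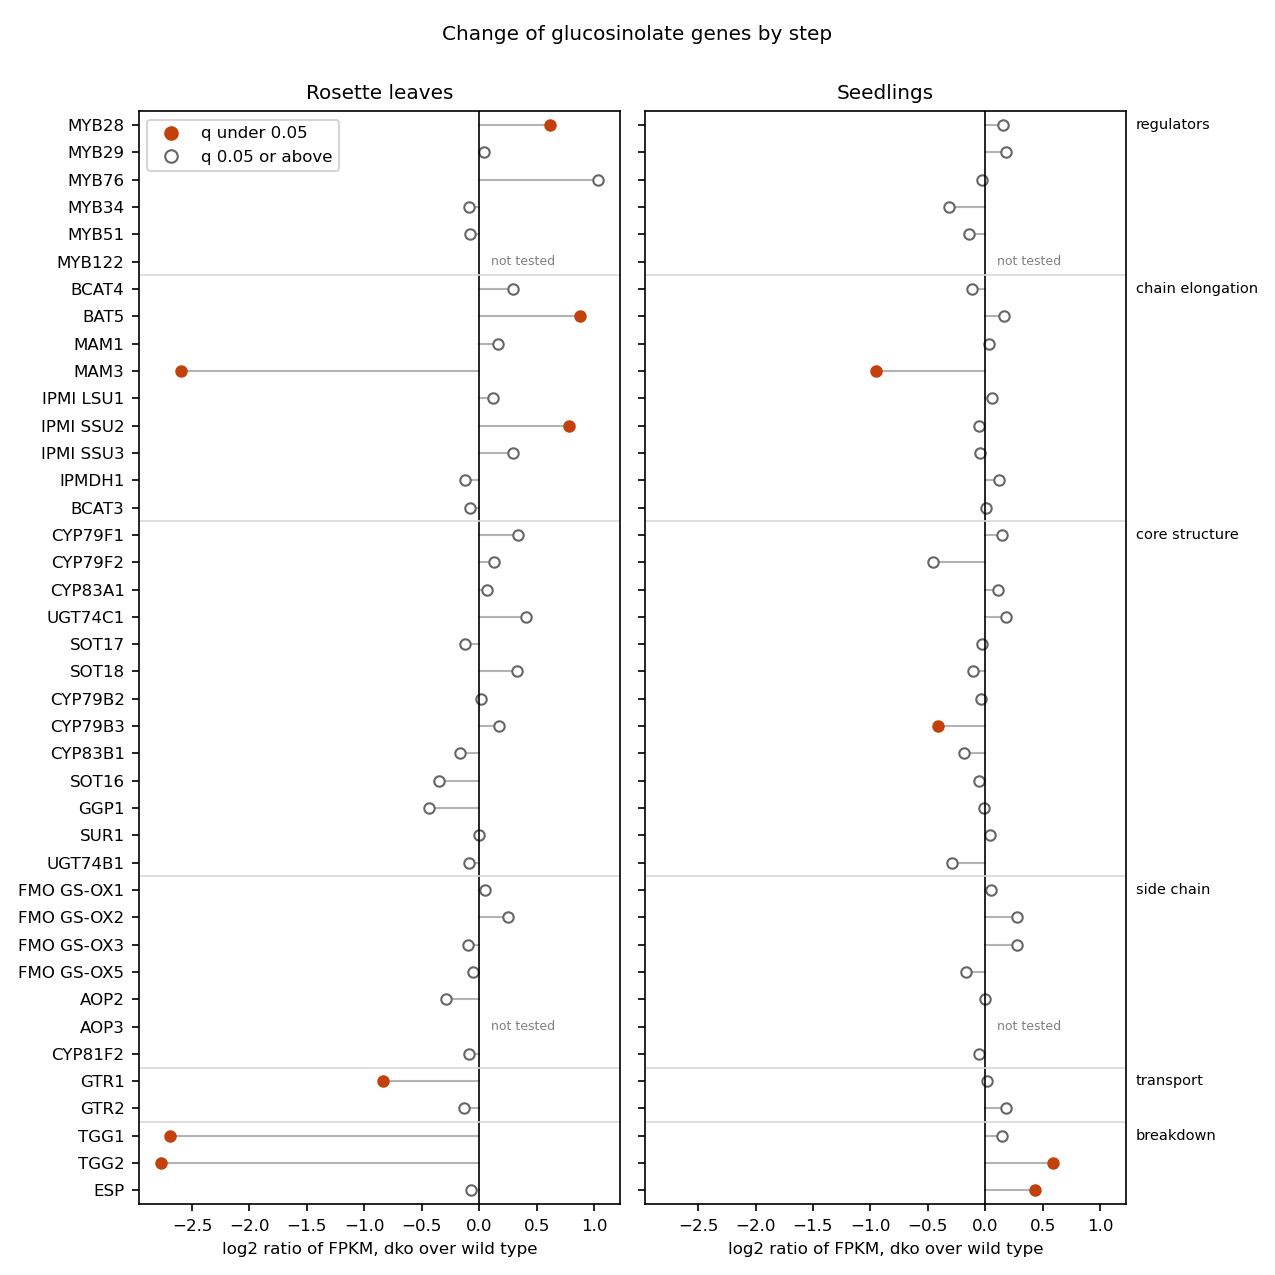
Log2 ratio of FPKM, dko over wild type, for each glucosinolate gene in rosette leaves (left) and seedlings (right), with filled points for q under 0.05 in the authors' deposited tables and rows ordered by step. In rosettes 7 of 38 tested genes are filled, 3 above and 4 below 0, and in seedlings 4, with 2 on each side.

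GTR1 (AT3G47960) and GTR2 (AT5G62680) are the plasma membrane importers that load glucosinolates into the phloem. GTR1 stood at 88.9 FPKM in dko rosettes and 159 FPKM in WT rosettes, a log2 ratio of -0.84 with q = 0.0106 (1.79-fold lower) by the authors' deposited table. In seedlings it stood at 41.2 FPKM in the dko and 40.8 FPKM in wild type (log2 ratio 0.01, q = 0.966, authors' deposited table). GTR2 did not pass, at 40.98 FPKM in dko rosettes and 44.9 FPKM in WT rosettes, and at 30.5 FPKM in dko seedlings and 27.0 FPKM in WT seedlings, in the authors' deposited tables. GTR1 lies on the minus strand of chromosome 3, and the table gives it a span (17692702 to 17700833) that also takes in the proton pump gene HA4 (AT3G47950), which stood at 1.52 FPKM in dko rosettes and 1.18 FPKM in WT rosettes in the authors' deposited table. The span given for GTR2 takes in HA11 in the same way, which fell to 6.26 FPKM in dko rosettes, against 19.2 FPKM in WT rosettes (q = 0.0392, authors' deposited table). The tables give such a span, shared with another tested locus, to 6 members in all, the others being BCAT4, IPMDH1, UGT74C1 and FMO GS-OX5. The companion cell markers SUC2 and APL, in whose cells GTR genes act, summed to 137 FPKM in dko rosettes and 157 FPKM in WT rosettes, with neither past the threshold in the authors' deposited table. In whole tissue, fewer cells of a type and less RNA per cell cannot be told apart.

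Of the 6 steps, breakdown held the largest falls in rosettes. TGG1 (AT5G26000), the major leaf myrosinase, stood at 66.4 FPKM in dko rosettes and 428 FPKM in WT rosettes, a log2 ratio of -2.69 with q = 0.000899 (6.44-fold lower) by the authors' deposited table. TGG2 (AT5G25980), the other leaf myrosinase, stood at 30.4 FPKM in dko rosettes and 208 FPKM in WT rosettes, a log2 ratio of -2.77 with q = 0.000899 (6.82-fold lower) by the authors' deposited table. Both genes fell by nearly the same factor. The level of TGG1 was 2.18 times that of TGG2 in dko rosettes and 2.06 times in WT rosettes. Among the 40 members TGG1 ranked 12th by FPKM in dko rosettes and 2nd in WT rosettes, and TGG2 ranked 22nd in dko rosettes and 4th in WT rosettes.

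In seedlings neither gene was lower. TGG1 stood at 1656 FPKM in dko seedlings and 1499 FPKM in WT seedlings (log2 ratio 0.14, q = 0.787, authors' deposited table). TGG2 stood at 957 FPKM in dko seedlings and 635 FPKM in WT seedlings, a log2 ratio of 0.59 that passed (1.51-fold higher, q = 0.0261, authors' deposited table). TGG1 and TGG2 were the members of highest and next-highest level in both seedling groups. ESP, which diverts the products toward nitriles and epithionitriles, rose in seedlings to 23.6 FPKM in the dko, against 17.4 FPKM in wild type (log2 ratio 0.44, q = 0.0123, authors' deposited table). In rosettes ESP stood at 14.0 FPKM in the dko and 14.7 FPKM in wild type (log2 ratio -0.07, q = 0.892, authors' deposited table). Rosettes and seedlings have separate Cuffdiff tables, which hold no replicate values, so the difference between tissues was not tested.

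TGG2 and TGG1 lie on chromosome 5 at 9072727 to 9075690 (plus strand) and 9079505 to 9082384 (minus strand), and the first annotated transcript of each has 12 exons. The 3.82 kb between them hold 1 locus, AT5G25990, which stood at 2.58 FPKM in dko rosettes and 0.425 FPKM in WT rosettes and did not pass (q = 0.417, authors' deposited table). The 250 bases before each gene (chr5:9082385-9082634, minus strand, and chr5:9072458-9072707, plus strand, from RefSeq's TAIR10.1 gene starts) are shown because the genes moved together in rosettes, and capitals mark exact runs of 12 or more bases that both hold.
TGG1: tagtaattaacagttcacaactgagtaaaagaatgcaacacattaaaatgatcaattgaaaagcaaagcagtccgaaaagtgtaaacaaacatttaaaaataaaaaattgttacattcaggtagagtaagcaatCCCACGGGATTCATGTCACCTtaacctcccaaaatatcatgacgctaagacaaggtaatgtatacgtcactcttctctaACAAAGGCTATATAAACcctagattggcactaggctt
TGG2: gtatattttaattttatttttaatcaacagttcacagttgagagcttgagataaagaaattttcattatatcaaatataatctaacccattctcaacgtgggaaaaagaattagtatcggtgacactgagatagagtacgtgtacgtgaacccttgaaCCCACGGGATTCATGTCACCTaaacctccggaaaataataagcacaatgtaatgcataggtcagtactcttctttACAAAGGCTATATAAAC
The longer run, of 21 bases, ends 96 bases before the TGG1 start and 72 bases before the TGG2 start. The shorter, of 17 bases, holds TATATAA, letters of a TATA box, which occur on either strand before 15 of the 40 members (37.5%) and 20.4% of all 27437 genes. Each run was found in the 250 bases before 2 of the 27437 genes, TGG1 and TGG2 themselves. The runs were picked as matches between these 2 genes, so their presence before both was fixed by that choice. Whether the runs bear on expression was not tested. The coding sequences are 79.7% identical, and their longest exact run is of 55 bases, at coding bases 1007 to 1061 of TGG1, shown because reads within it fit both genes.
TGG1 and TGG2 coding run: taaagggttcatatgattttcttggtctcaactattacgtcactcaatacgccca

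TGG1 and TGG2 are expressed in guard cells and myrosin cells, so markers of leaf cell types were set beside them. Of 5 guard cell markers 0 passed Cuffdiff's test in rosettes in the authors' deposited table, 0 had an unadjusted p under 0.05, and their summed level was 19.5 FPKM in dko rosettes and 24.5 FPKM in WT rosettes. In seedlings they summed to 25.7 FPKM in the dko and 32.1 FPKM in wild type, with MYB60 lower past the threshold (2.89 FPKM in dko seedlings and 4.54 FPKM in WT seedlings, q = 0.0460, authors' deposited table) and 2 of 5 at an unadjusted p under 0.05. All 5 lay below wild type in dko rosettes. HT1 showed the widest gap, at 1.54 FPKM in dko rosettes and 2.52 FPKM in WT rosettes (q = 0.206, authors' deposited table). FAMA, a regulator needed for both guard cells and myrosin cells, showed the narrowest and stood at 7.12 FPKM in dko rosettes and 7.45 FPKM in WT rosettes (q = 0.903, authors' deposited table). The 5 mesophyll markers summed to 8204 FPKM in dko rosettes and 16260 FPKM in WT rosettes, with 2 of 5 lower past the threshold, and to 15555 FPKM in dko seedlings and 35671 FPKM in WT seedlings, with 4 of 5 lower, in the authors' deposited tables. The summed mesophyll level was thus lower in the dko in both tissues, as was the summed guard cell level, and neither sum carries an error. TGG1 and TGG2 were lower in rosettes and not in seedlings. In rosettes the mesophyll markers of highest level did not pass in the authors' deposited table. RBCS1A stood at 3989 FPKM in the dko and 5745 FPKM in wild type (q = 0.464). LHCB1.3 stood at 3047 FPKM in the dko and 8029 FPKM in wild type (q = 0.103). The marker sums were not rescaled to the nuclear sum, which would add 0.27 to log2 ratios in rosettes and 0.19 in seedlings. That shift would bring the guard cell sums of the dko nearer to wild type in both tissues. The part of cell makeup in the TGG result was not tested. The 6 root markers summed to 3.31 FPKM in dko rosettes and 4.81 FPKM in WT rosettes, with LRX1 and TIP2;3 at 0 in both. They summed to 185 FPKM in dko seedlings and 220 FPKM in WT seedlings, nearly all of it PYK10 (178 FPKM in dko seedlings and 213 FPKM in WT seedlings, authors' deposited table), and CASP1, LRX1, TIP2;3 and PRX64 were at most 1.15 FPKM in either seedling group.

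**Figure D3:**
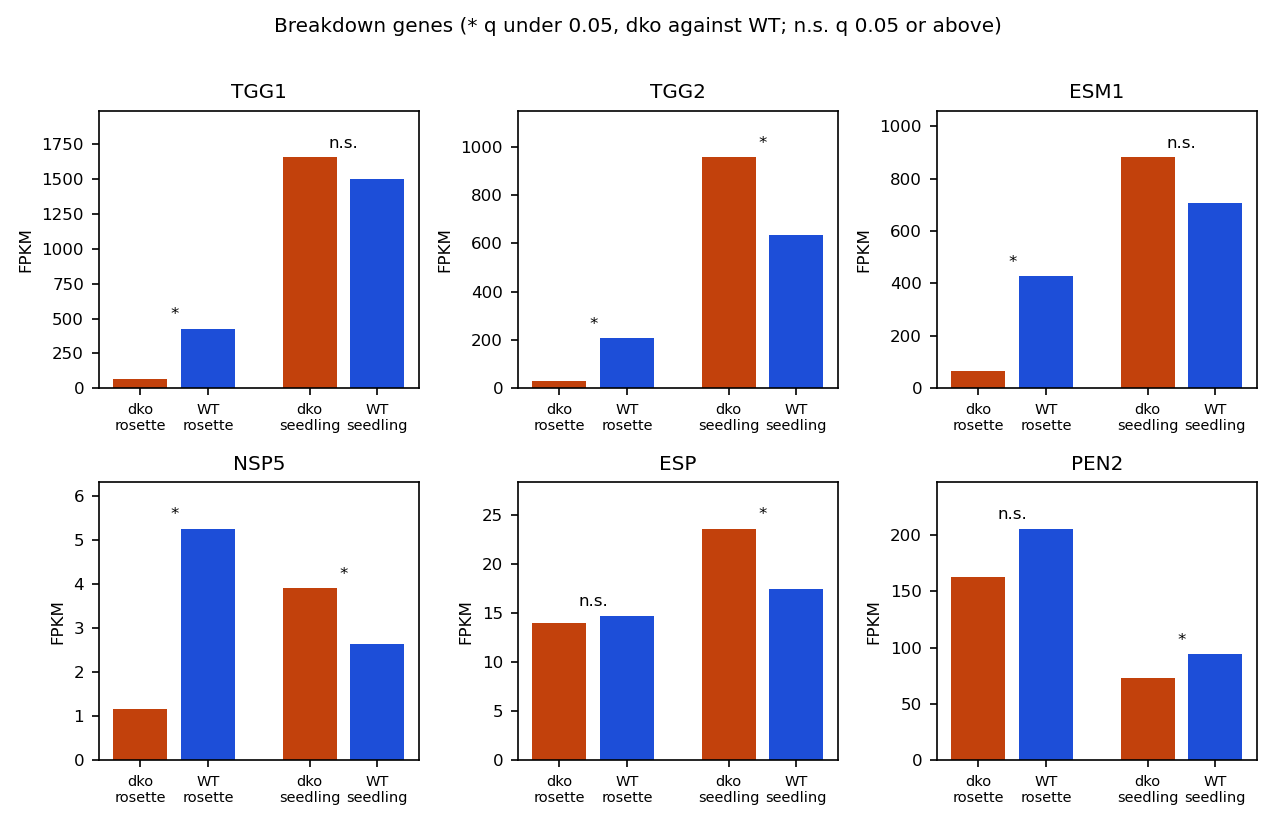
FPKM of 6 breakdown genes, each panel with its own linear axis from 0 and bars for dko rosettes, WT rosettes, dko seedlings and WT seedlings (1 pooled value per bar, rosette and seedling tables scaled separately; the 6 genes were chosen after their values were seen). TGG1, TGG2, ESM1 and NSP5 are lower in dko than in WT rosettes, while TGG2, NSP5 and ESP are higher in dko than in WT seedlings.

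Beyond the 40 members, 46 other genes of the pathway and of its neighbours, listed by role, were examined. In rosettes, 7 of 39 tested were lower and none higher (17.9%), and in seedlings 3 of 40 were higher and 5 lower (20%), in the authors' deposited tables. Those shares are near the backgrounds of 16.8% and 16.5%, and the medians were -0.24 and -0.11. At an unadjusted p under 0.05, 2 of the 39 were higher in rosettes, MBP1 and CYP71A12 of camalexin synthesis (both named after their values were seen). ESM1, which promotes isothiocyanate over nitrile formation, stood at 66.2 FPKM in dko rosettes and 427 FPKM in WT rosettes, a log2 ratio of -2.69 (6.46-fold lower, q = 0.000899, authors' deposited table), and at 882 FPKM in dko seedlings and 708 FPKM in WT seedlings (log2 ratio 0.32, q = 0.245, authors' deposited table). NSP5, a nitrile-specifier protein, stood at 1.17 FPKM in dko rosettes and 5.25 FPKM in WT rosettes (log2 ratio -2.17, q = 0.000899, authors' deposited table), and rose in seedlings to 3.89 FPKM in the dko, against 2.63 FPKM in wild type (log2 ratio 0.57, q = 0.0391, authors' deposited table). ESM1 and NSP5 thus fell in rosettes beside TGG1 and TGG2, and were above wild type in dko seedlings, where only NSP5 passed.

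Among other breakdown genes, PEN2, the myrosinase of indolic glucosinolates in living cells, stood at 72.8 FPKM in dko seedlings and 94.2 FPKM in WT seedlings (log2 ratio -0.37, q = 0.0320, authors' deposited table), and at 163 FPKM in dko rosettes and 206 FPKM in WT rosettes (q = 0.413, authors' deposited table). MBP1, a myrosinase-binding protein, was higher in dko seedlings with a log2 ratio of 0.37 (q = 0.0369, authors' deposited table). The root myrosinase genes TGG4 and TGG5 were at most 0.218 FPKM in any group and had no test.

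Among other regulators, MYC4, a partner of the MYB activators, fell in rosettes with a log2 ratio of -0.69 (4.71 FPKM in the dko, 7.58 FPKM in wild type, q = 0.0310, authors' deposited table). SDI1, a repressor of aliphatic glucosinolate synthesis under sulfur shortage, stood at 3.32 FPKM in dko rosettes and 7.53 FPKM in WT rosettes (log2 ratio -1.18, q = 0.00231, authors' deposited table). Its relative SDI2 rose in seedlings to 13.7 FPKM in the dko, against 8.08 FPKM in wild type (log2 ratio 0.76, q = 0.000768, authors' deposited table). The glutathione transferase gene GSTF10 (log2 ratio -0.65, q = 0.0465), FMO GS-OX4 (-1.27, q = 0.00164) and the methyltransferase gene IGMT5 (-0.73, q = 0.0437) fell in rosettes in the authors' deposited table. The hydroxylase gene GSL-OH (log2 ratio -0.39, q = 0.0447) and IGMT2 (-0.88, q = 0.0220) fell in seedlings, as did ASA1 of tryptophan synthesis (-0.36, q = 0.0389) and PAD3 of camalexin synthesis (-0.56, q = 0.0180), in the authors' deposited table. APK1 and APK2, which make the sulfate donor, did not pass in either tissue.

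The 4 members that fell in rosettes all lie on the chromosomes of the targeted genes, within 1 Mb of them, a window chosen after their values were seen. GTR1 lies 669.7 kb from TRIC1, and MAM3, TGG1 and TGG2 lie 715 kb, 640 kb and 634 kb from TRIC2. The window holds 2 further members, BCAT3 at 50.5 kb from TRIC1 and MAM1 at 730 kb from TRIC2, neither past the threshold. Of the other 32 tested members 3 were higher and none lower in rosettes in the authors' deposited table. The lack of falls outside the window follows from how it was chosen. In seedlings the 6 members in the window held 1 rise (TGG2) and 1 fall (MAM3), and the other 32 held 1 rise (ESP) and 1 fall (CYP79B3). Of the loci in the window that are not members, 16.5% of 363 around TRIC1 and 21.1% of 280 around TRIC2 passed in rosettes in the authors' deposited table, beside 16.8% of all tested loci. In seedlings 19.4% of 391 and 17.9% of 307 passed, beside 16.5%. Around TRIC2, 9 of those loci (3.23% of those above 0 in both groups) had a log2 ratio of -2 or lower in rosettes, beside 2.00% of tested loci elsewhere, and in seedlings none did, beside 0.418%. Around TRIC1, 7 loci (1.93%) had such a ratio in rosettes, beside 2.02% elsewhere, and 1 (0.256%) in seedlings, beside 0.415%. ESM1 and NSP5, which fell in rosettes as well, lie 13639 kb from TRIC1 and 11102 kb from TRIC2. The part of chromosomal position in these results was not tested.

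**Figure D4:**
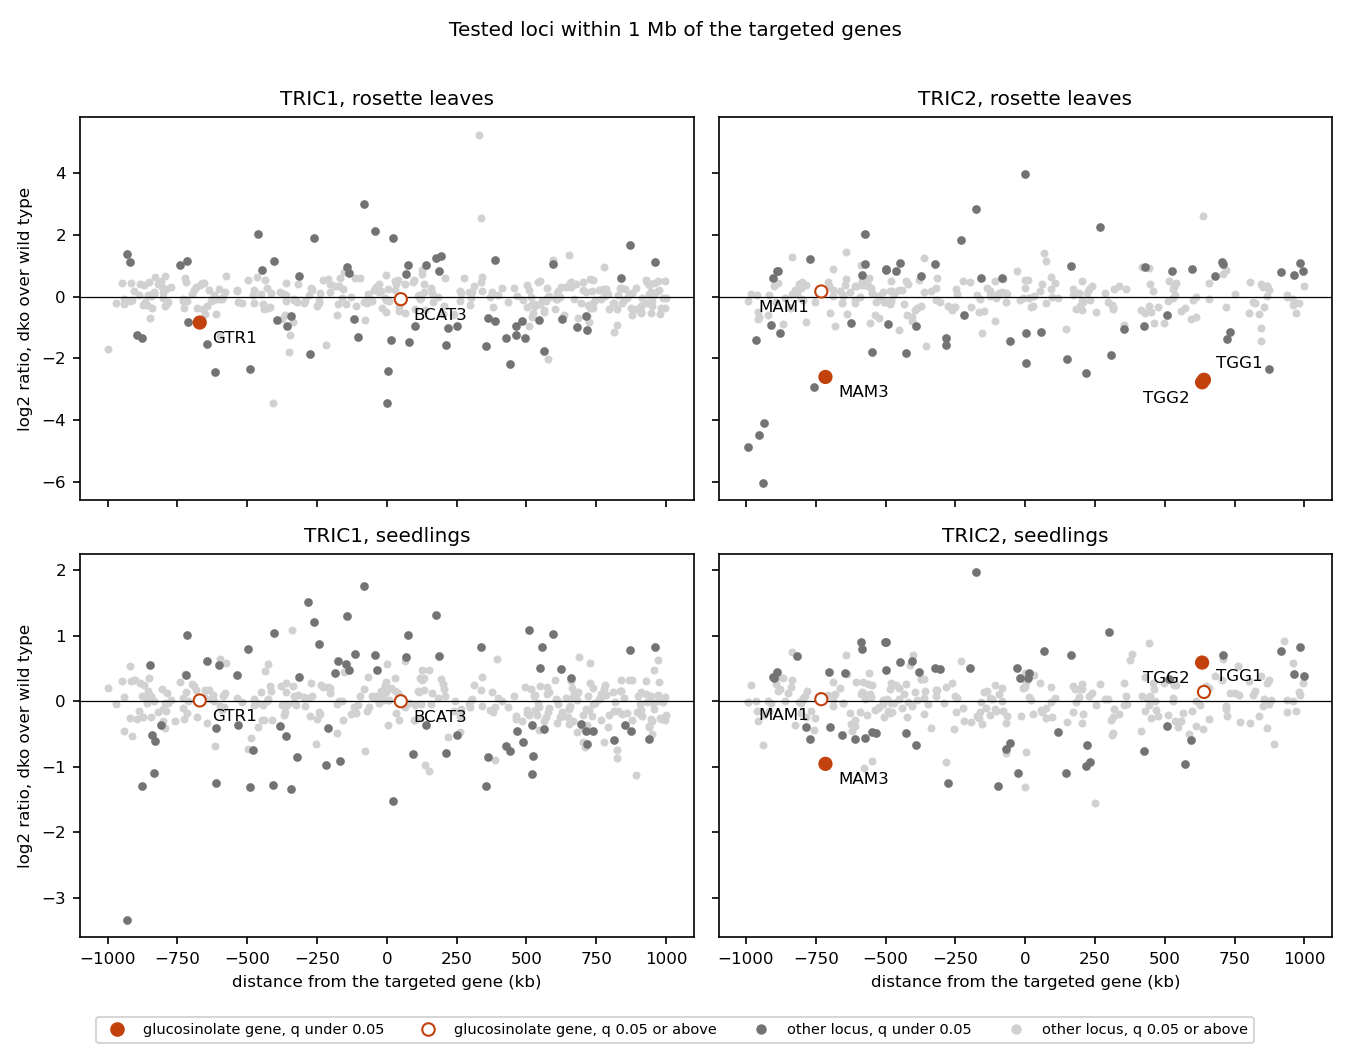
Log2 ratio of FPKM (dko over wild type) against distance in kb from TRIC1 (left) and TRIC2 (right) for tested loci within 1 Mb, in rosette leaves (top) and seedlings (bottom), with the targeted gene left out, glucosinolate genes in orange and filled where q is under 0.05, and other loci in grey. MAM3 (-2.60), TGG1 (-2.69) and TGG2 (-2.77) lie below most loci around TRIC2 in rosettes, and of these MAM3 alone lies below 0 in seedlings (-0.95).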

How the data were processed

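Rosette leaves and seedlings of dko and WT(Col0) plants were sequenced, and 2 tables of Cuffdiff output, 1 per tissue, were used. The submitters' processing notes name the TAIR10 genome and, all with the version 2.2.0, TopHat2, Bowtie2, Cuffdiff and Cufflinks. The annotation, the normalisation setting, strand use and the handling of reads that match several genes are not stated there, in the labels or in the headers. The authors deposited 1 FPKM per gene and group, the log2 ratio, a test statistic (a score without a fixed range, not used), and p-values and q-values, per the file headers. Direction was read from the headers as dko over wild type. Because no replicate values are held, the replicate model planned for counts was replaced by the deposited q-value, with a threshold of 0.05 over all tested loci. These p-values come from Cuffdiff's own model of variation, whose settings are not stated. How the stated replicates entered it is not known, and they may be technical. 

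From these values shares, medians, ranks, ratios within a table and distances were computed with Python 3.11.15, pandas 2.3.3 and numpy 2.4.6. Loci were matched to RefSeq's TAIR10.1 annotation, where 11506 of 31510 shared loci have the same start as in the tables (1-based). Upstream sequences of 250 bases came from that genome. Coding sequences were aligned globally with Biopython 1.88 (match 2, mismatch -1, gap opening -5, extension -0.5), and protein identities were not computed. The counting code was run on simulated data with shifts far larger than the noise, which tests neither Cuffdiff's model nor the calls. The 40 members, 46 other pathway genes and 21 markers were chosen with earlier results of these data known. The text names all members and the pathway genes past the threshold, at most 4 per role and tissue. HA4, HA11, AT5G25990, FAMA, HT1, MYB60, RBCS1A, LHCB1.3, the root markers, APK1, APK2, TGG4 and TGG5 stand outside that rule and were named after their values were seen. Alternatives were other q thresholds, a 2-fold minimum, an FPKM minimum of 1, recomputed Benjamini-Hochberg adjustment, recentring, rescaling, pseudocounts of 1 and 0.1, and leaving out paralogs, overlapping loci or loci near the targeted genes.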

Additional observations from a re-analysis of the deposited data

Results flagged for a closer look

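TGG2 and NSP5 stood past the threshold in both tissues with opposite directions. For TGG2 the log2 ratio of dko over wild type was -2.77 in rosettes and 0.59 in seedlings in the authors' deposited tables. For NSP5 it was -2.17 in rosettes and 0.57 in seedlings in the authors' deposited tables. Both were singled out because the 2 tissues moved in opposite directions, and the difference itself was not tested, since each group has 1 pooled value and the tables were scaled separately. Samples far from others could not be looked for, for the same reason.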

How the results depend on the processing

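No direction of a member past the threshold turned under any alternative run. At q 0.01 the 38 tested members held 1 call in seedlings (0 higher, 1 lower, MAM3), and the other pathway genes held 4 in rosettes (all 4 lower) and 1 in seedlings (1 higher, 0 lower). The calls of MYB28 and GTR1 in rosettes and of CYP79B3, TGG2 and ESP in seedlings were lost at that threshold, and under the 2-fold minimum those of MYB28, BAT5, IPMI SSU2 and GTR1 in rosettes and of all 4 members in seedlings. With a 2-fold minimum the members held 3 calls in rosettes (0 higher) and 0 in seedlings (0 higher, 0 lower), and the other pathway genes held 4 in rosettes (4 lower) and 0 in seedlings. At q 0.1, 8 other pathway genes were lower in seedlings. Leaving out CYP79F2, TGG2, SOT17 and MAM3 left 2 members lower in rosettes, and 2 called in seedlings (1 higher, 1 lower). Leaving out members within 1 Mb of a targeted gene, an alternative chosen after seeing the data, left 3 called in rosettes (0 lower) and 2 in seedlings (1 higher, 1 lower). In each of these the alternative's own construction, a stricter or looser threshold or fewer genes, changes the count. Rescaling to the nuclear sum moved the median log2 ratio of the members to 0.24 in rosettes and 0.19 in seedlings. Recomputed adjustment, recentring and pseudocounts kept these counts within 1.5 times, which their construction largely fixed. The recomputed adjustment gave 0 call differences from the deposited one in either tissue. Recentring and pseudocounts kept the deposited q-value, and recentring moved log2 ratios by only 0.01.

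No paired analysis was possible because the tables hold 1 pooled value per group, and leaving out replicates was not run for the same reason. Depth and replicate spread are unknown, so low genes such as MYB76, MYB122, CYP79F2 and FMO GS-OX2 rest on an unknown number of reads.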

Other observations

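Ratios between paired genes are given as a description of these pooled values. MYB51, an indolic activator, stood at 46.4 times the level of MYB34 in dko rosettes and 46.1 times in WT rosettes, and at 2.69 times in dko seedlings and 2.38 times in WT seedlings. CYP83B1 of the indolic branch stood at 2.51 times the level of CYP83A1 of the aliphatic branch in dko rosettes and 2.96 times in WT rosettes. In seedlings CYP83B1 was below CYP83A1, at 0.723 times its level in the dko and 0.889 times in wild type. CYP79F1 stood at 23.5 times the level of CYP79F2 in dko rosettes and 20.4 times in WT rosettes, and at 46.4 times in dko seedlings and 30.6 times in WT seedlings. TGG1 stood at 2.18 times the level of TGG2 in dko rosettes and 2.06 times in WT rosettes, and at 1.73 times in dko seedlings and 2.36 times in WT seedlings. For MYB51 with MYB34 and CYP83B1 with CYP83A1 the ratios lay further apart between tissues than between genotypes, whereas for MAM1 with MAM3, whose ratio was 98.2 in dko rosettes and 14.5 in WT rosettes, against 44.2 in dko seedlings and 22.3 in WT seedlings, the widest gap was between genotypes in rosettes. These ratios were taken within a table, and none was tested.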
